A study of Mus musculus with 6 samples.

Results

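The regions described here are stretches of open chromatin that were called in every sample of the study and that lie at the annotated end of a gene. The study used ATAC-seq, which relies on an enzyme, a transposase, that inserts sequencing adapters wherever DNA is not wrapped tightly, on long-term haematopoietic stem cells of aged (3 samples) and young (3 samples) C57BL/6 mice. The labels give neither the ages in months nor the number of mice behind a sample. In both groups the cells came from bone marrow and were sorted as negative for lineage markers, Flk2 and Cd34 and positive for c-Kit and Sca-1. All were primary cells kept overnight at 3% oxygen in buffered saline with fetal bovine serum, so the regions belong to cells after culture. Nothing in the labels says that the samples came from separate animals, so the p-values below measure the spread between these samples alone.

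Members were chosen by the calls themselves. The distinct peaks of the 6 peak lists on chromosomes 1 to 19 were merged where they overlapped by at least 1 bp, which gave 844567 regions. Of these, 9376 were called in all 6 lists, and 5584 of those lay within 1 kb of the first or last base of a protein-coding gene. The label "gene end" therefore covers the start of a gene as well as its far, 3′ end. The other 3792 regions called in all 6 lists met the same rule on calls and lay farther from a gene, and they are the set against which the members are compared. As a description of the rule, 14.2% of the 39375 regions near a gene end were called in all 6 lists, against 0.471% of the 805192 regions elsewhere.

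A gene start is where RNA polymerase assembles and begins transcription. At active starts the nucleosome upstream of the start is displaced, which leaves a short stretch that a transposase can reach. Many mammalian promoters lie in CpG islands, short stretches that keep the CpG dinucleotides most of the genome has lost, and these promoters serve widely used genes. Some such promoters are bidirectional, with a gene starting on each strand. Far ends of genes are less often accessible and can hold enhancers or the start of another transcript.

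The sequences upstream of the strongest members show what such a region holds. Each line gives the 150 bases before an annotated start, 5′ to 3′ on the strand of the gene, from RefSeq's promoter table on GRCm38.p6. The first 4 are the strongest members with 1 start of known strand, and the last 3 come from the 2 strongest members with 2 starts on opposite strands, where the promoter windows of Aamp in the first and of Erp44 and Invs in the second overlap the region. Capitals mark matches to any of 12 short motifs searched on both strands: here GGGCGG (the GC box bound by SP and KLF factors), CCAAT or its reverse complement ATTGG (bound by NF-Y), CCGGAAG (ETS factors) and GCGCNTGCG (NRF1).
Hjurp (chr1:88277580-88277729, minus strand): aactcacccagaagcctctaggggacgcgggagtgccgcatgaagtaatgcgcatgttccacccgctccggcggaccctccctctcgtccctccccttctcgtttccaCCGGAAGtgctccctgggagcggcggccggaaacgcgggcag
Ypel5 (chr17:72836478-72836627, plus strand): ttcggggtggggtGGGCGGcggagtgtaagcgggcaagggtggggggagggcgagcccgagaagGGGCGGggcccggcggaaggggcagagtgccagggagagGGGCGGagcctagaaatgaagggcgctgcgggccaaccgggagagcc
Camsap1 (chr2:25983283-25983432, minus strand): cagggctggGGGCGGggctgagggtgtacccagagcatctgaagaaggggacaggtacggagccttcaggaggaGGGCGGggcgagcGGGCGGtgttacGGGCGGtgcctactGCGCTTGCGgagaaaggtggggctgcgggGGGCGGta
Pank3 (chr11:35769345-35769494, plus strand): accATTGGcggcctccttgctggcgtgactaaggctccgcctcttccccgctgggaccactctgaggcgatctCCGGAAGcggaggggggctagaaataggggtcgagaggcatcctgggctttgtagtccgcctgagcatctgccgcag
Aamp (chr1:74284739-74284888, minus strand): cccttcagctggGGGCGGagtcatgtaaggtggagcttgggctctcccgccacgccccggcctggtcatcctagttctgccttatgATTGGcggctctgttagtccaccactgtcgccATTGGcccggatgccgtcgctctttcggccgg
Erp44 (chr4:48279636-48279785, minus strand): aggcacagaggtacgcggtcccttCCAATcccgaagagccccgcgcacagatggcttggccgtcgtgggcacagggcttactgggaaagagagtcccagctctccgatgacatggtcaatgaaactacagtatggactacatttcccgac
Invs (chr4:48279610-48279759, plus strand): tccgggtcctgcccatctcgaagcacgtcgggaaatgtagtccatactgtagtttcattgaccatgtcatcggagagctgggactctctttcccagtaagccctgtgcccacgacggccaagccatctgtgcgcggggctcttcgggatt

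These 7 stretches hold between 9 CpG dinucleotides (Erp44) and 15 (Hjurp). Invs holds none of the 12 motifs, and the other 6 hold at least 1 of the 4 named. A match is a string of letters and was not tested for binding.

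Each deposited list gives, for every peak, a −log10 p-value from the peak caller, and peaks were ranked by it within their own list. Without ties, a percentile of 95 means that 95% of that list's peaks ranked at or below the peak. Tied peaks share their mean rank. The lists held 234785, 125193 and 125555 autosomal peaks in aged 1, 2 and 3, and 252914, 242417 and 107804 in young 1, 2 and 3. All peaks passed p of 0.01, so each list includes many weak calls, and the read depth behind the lists is unknown.

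The young 2 list stood apart from the other 5. Its median −log10 p in the members was 4.96, against 9.79 to 96.1 in the other lists. Many of its peaks had tied values, so its median percentiles move in steps. The members had their lowest percentile in young 2 in 54.7% of cases, and in aged 3 in a further 21.3%. Of the 3114 gene-end regions called in exactly 5 lists, 71.3% were missing from young 2 and 25.3% from aged 3. Results that rest on these lists are given with and without them. Where a list was left out, the regions were merged and the members chosen again from the remaining lists. The set of members then changed too, to 7793 without young 2.

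Lists of cell type markers were read against the 31.4% of all protein-coding genes with a member at an end. Of 15 genes that mark long-term stem cells, 7 had a member at an end: Hlf, Hoxa9, Kit, Mecom, Meis1, Runx1 and Tal1. For the other markers, the lists were counted that called the same region at an end, taking the region with the most lists. This count was 1 for Slamf1, which encodes CD150, and 2 for Ly6a, which encodes Sca-1. Peaks elsewhere at the ends of a gene can add lists. No member lay at any of the 7 B cell, 7 T and NK cell, 10 myeloid, 3 mast and basophil or 6 endothelial and stromal markers. Many of these markers had a region at an end that fewer lists called, such as Cd79a, Cd79b, Cd3d, Cpa3, Col1a1 and Pecam1, each with a region called in 5. Of the 7 B cell markers, 6, 6 and 2 were called in aged 1, 2 and 3 and 7, 5 and 5 in young 1, 2 and 3. The megakaryocyte list had members at Itga2b and Pf4 (2 of 5) and the erythroid list at Tfrc (1 of 7). Neither Cd34 nor Flt3 (the gene of Flk2), against which the cells were sorted, had a member, although a peak at an end was called in 5 lists for Cd34 and in 4 for Flt3. An open gene end is not a measure of expression.

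The members ranked high in the lists and were wider than other shared regions. Their merged width had a median of 859 bp, with quartiles at 719 and 1032 bp and a range of 258 to 3260 bp. Other shared regions had a median merged width of 677 bp (quartiles 550.75 and 850.25 bp). The mean of a member's 6 percentiles had a median of 93.0 (quartiles 87.4 and 97.7), against 88.3 (quartiles 80.8 and 94.0) for other shared regions. A percentile above 90 in every list was reached by 2063 members (36.9%) and by 734 other shared regions (19.4%). At the low end, 1108 members (19.8%) fell below the 50th percentile in at least 1 list, against 1180 other shared regions (31.1%). Width and mean percentile were nearly unrelated within the members (Spearman's rho 0.103 across 5584 regions, a description, since regions share lists).

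List by list, the median percentile of the members was 97.7, 96.7 and 96.3 in aged 1, 2 and 3 and 98.2, 88.8 and 96.2 in young 1, 2 and 3. For the other shared regions it was 96.3, 93.4 and 91.7 in the aged lists and 96.5, 73.1 and 91.8 in the young lists. The members were thus higher in every list, by the most in young 2 and by the least in aged 1. The gap averaged 5.17 ± 5.32 percentile points (SD, n = 6 lists; higher in 6 of 6; exact 2-sided sign-flip permutation test, p = 0.03125, the smallest that 6 lists allow). Without young 2, with members chosen again from the other lists, it averaged 4.42 points. Because a percentile depends on how many weak peaks a list holds, the regions were also ranked among the 9376 shared regions alone, and on that scale the gap was 22.8 points (exact sign-flip p = 0.03125).

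The peaks that each list called in the members were also wider. Their median width was 517, 755 and 426 bp in aged 1, 2 and 3 and 540, 311 and 681 bp in young 1, 2 and 3. In other shared regions it was 415, 556 and 313 bp in the aged lists and 421, 275 and 502 bp in the young lists. Peaks in members were wider in each list, and young 2 had the narrowest peaks in both sets. The gap averaged 125 ± 58 bp (SD, n = 6 lists; exact sign-flip p = 0.03125). The deposited fold enrichment over the sample's own background was higher by 1.91 ± 1.17 at the median (SD, n = 6 lists; higher in 6 of 6; exact sign-flip p = 0.03125). Peaks with several summits made up 60.2% of members in aged 2 and 0.269% in young 2.

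**Figure D1:**
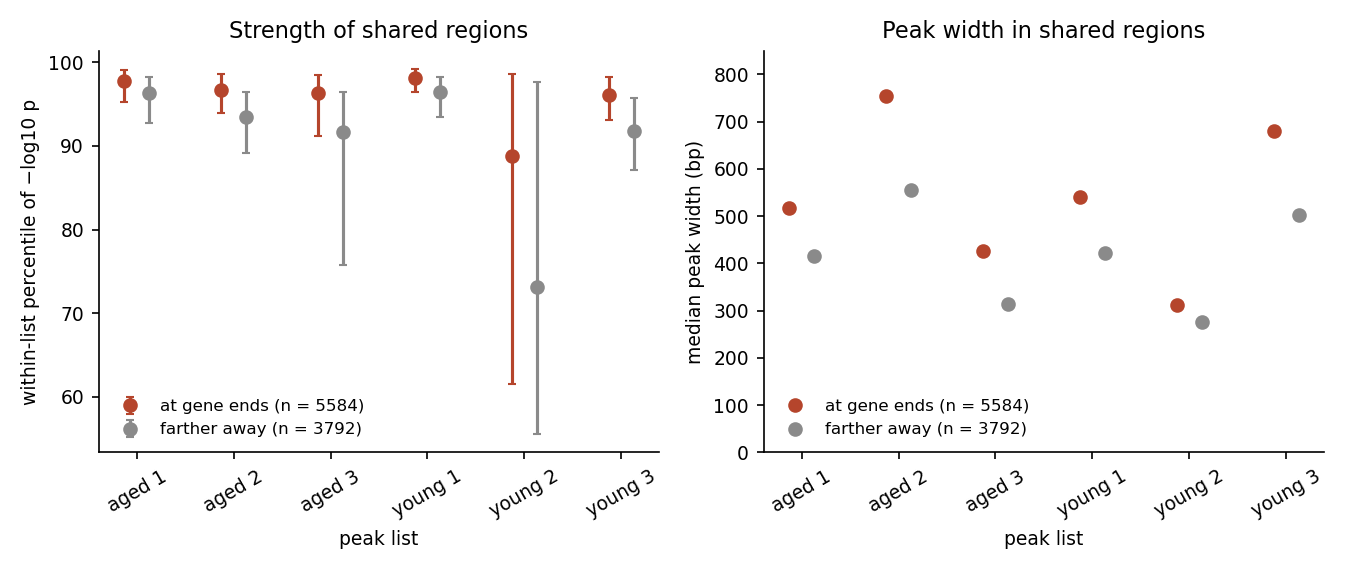
Left, the percentile of the −log10 p within each peak list for shared regions at gene ends (red) and for shared regions farther away (grey); points are medians and bars run between quartiles over regions. Right, the median width in bp of the peaks called in the same regions. The red points lie above the grey points in all 6 lists in both panels, and the medians for young 2 are 88.8 and 73.1.

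A small part of each list fell in the members, and most of the 5000 strongest peaks did in 5 of 6 lists. Strong peaks are more likely to be called in all 6 lists, so the rule favours them. Members held 2.78, 4.62 and 4.93% of the peaks of aged 1, 2 and 3 and 2.46, 2.75 and 5.44% of those of young 1, 2 and 3. Of the 5000 strongest peaks, members held 54.0, 63.8 and 59.6% in the aged lists and 59.6, 34.6 and 64.5% in the young lists. Other shared regions, which met the same rule on calls, held 23.4, 21.9 and 22.1% in the aged lists and 21.5, 15.7 and 20.9% in the young lists. Of the 100 strongest, members held 86, 92 and 85% in the aged lists and 86.5, 69.4 and 86% in the young lists. Of the 10000 strongest, they held between 24.5% (young 2) and 48.3% (young 3). Values that are not whole arise where peaks tied at the limit were counted in part. For members, the young 2 list was the lowest at 100, 5000 and 10000 peaks.

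The member with the highest percentiles lay at the far end of Lars2, which encodes the mitochondrial leucyl-tRNA synthetase. The region, chr9:123461729-123462257 in mm10, lay 418 bp from the annotated gene end. It ranked first in aged 1, aged 2, aged 3 and young 3 and second in young 1 and young 2. Its peak ended at the same base, 123462257, in every list except young 2, where it ended at 123462187. Of the 5584 members, this was the only 1 in which at least 5 lists agreed on a right edge, and in 0 did they agree on a left edge. Among the 3792 other shared regions, 3 had such a right edge. The region was not checked against a list of positions that collect reads in many experiments.

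Hjurp was next in mean percentile. The region at Hjurp, which encodes the chaperone that loads the centromeric histone CENP-A, spanned chr1:88277097-88277857. Its peak had a fold enrichment of 13.7, 15.5 and 10.4 in aged 1, 2 and 3 and of 17.4, 6.92 and 18.98 in young 1, 2 and 3. Only young 2 lay outside the range of the aged lists on the low side, and young 1 and young 3 lay above it. The Hjurp peak was 671, 719 and 599 bp wide in the aged lists and 700, 399 and 701 bp in the young lists. Ypel5, a member of the yippee family, had a fold enrichment of 16.0, 16.3 and 16.3 in the aged lists and 15.6, 8.63 and 16.3 in the young lists. Camsap1, which encodes a protein that binds microtubule minus ends, had 15.3, 21.2 and 14.5 in the aged lists and 17.1, 7.44 and 21.0 in the young lists. For both genes young 2 was the lowest and the other 5 lists overlapped between the ages. These folds are relative to each sample's own background and depend on its depth.

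The other members with the highest mean percentiles had varied roles. M6pr encodes a mannose 6-phosphate receptor that sorts lysosomal enzymes, and its region was 683 bp wide with a mean percentile of 99.98. Mtmr4, a phosphoinositide phosphatase, reached 99.97 over 969 bp. Pank3, a pantothenate kinase at the head of coenzyme A synthesis, reached 99.93 over 955 bp. Smpd3, a neutral sphingomyelinase, reached 99.93 over 693 bp. The promoter of Sp1, itself the gene of a factor that binds GC boxes, reached 99.93 over 1301 bp. The only one of the 10 strongest with paired ends was the 589 bp region between Aamp and Pnkd, at 99.94.

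The widest and the weakest members were not the strongest ones. The widest, at 3260 bp, lay at Gm20783 and LOC108167694 and had a mean percentile of 93.2. The next were at Crlf2 (a subunit of the receptor for the cytokine TSLP, 2398 bp, 97.5), Ugt1a1 (a bilirubin-conjugating enzyme, 2218 bp, 55.9), the pair Enoph1 and Hnrnpdl (2154 bp, 90.1) and the pair Zbtb1 and Zbtb25 (2146 bp, 77.0). A merged region can be wide because peaks of different lists are offset, and the percentiles at Ugt1a1 differed most: 81.2, 78.4 and 1.45 in aged 1, 2 and 3 and 89.4, 22.4 and 62.4 in young 1, 2 and 3. The lowest mean percentiles were at Tafa2 (32.9), Uvssa (41.9), Vpreb3 (43.5), Rpp30 (44.4) and Bace2 (48.8). Vpreb3 is a gene of the B cell lineage, and its region lay 953 bp from the far end of the gene. Of these 5 regions, 3 lay at far ends (Uvssa, Vpreb3 and Rpp30).

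The members just inside the 1 kb limit lay 998 bp from Aktip, 996 bp from Zfp688 and 995 bp from Ttll8, with mean percentiles of 94.8, 95.4 and 94.7. The shared regions just outside the limit lay 1005 bp from Tob1, 1009 bp from Myo5a and 1013 bp from Mknk1, with mean percentiles of 98.8, 89.9 and 93.9. For 4940 members (88.5%) the annotated end lay inside the region itself.

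Members served a minority of genes. Of 20661 autosomal protein-coding genes, 6496 had a member within 1 kb of an end, which is 31.4%, and 211 of these had at least 2. At 3102 further genes, the end region with the most lists was called in exactly 5, and 2334 genes (11.3%) had no peak at an end in any list. The single lists called a peak at an end of 70.5, 65.9 and 54.9% of genes in aged 1, 2 and 3 and of 71.2, 56.3 and 65.8% in young 1, 2 and 3. The share with a member therefore depends on the lists with fewest calls: it was 42.4% without young 2 and 51.6% without young 2 and aged 3. Of the 6496 genes, 6487 kept a region called in every list when young 2 was left out. This number is largely set by the rule, since such a region stays called unless merging without young 2 splits it. Genes with a member had a median length of 22.3 kb, against 15.1 kb for genes without.

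Gene classes were formed by symbol, and their shares are read against the 31.4% of all genes. Many classes of the basic apparatus of the cell had high shares. Among the genes for cytosolic ribosomal proteins, 52 of 72 (72.2%) had a member, led by Rps19, Rpl27 and Rps3 with mean percentiles of 99.7, 99.7 and 99.6. Of 23 genes for the import of proteins into mitochondria, 17 (73.9%) had one, led by Tomm40l and Timm21. The shares were 68.6% for aminoacyl-tRNA synthetases (24 of 35), 66.2% for splicing factors (45 of 68), 63.4% for the transcription machinery (64 of 101) and 63.2% for translation factors (43 of 68). Sf3b2, a subunit of the U2 snRNP, led the splicing factors at 99.8, and Eif5, a factor in start codon selection, led the translation factors at 99.7. Lars2, whose region lies at its far end, is counted among the synthetases.

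Classes of turnover, division and the genome itself also had high shares. Members lay at 21 of 30 autophagy genes (70%), 39 of 61 DNA repair genes (63.9%), 53 of 84 replication and cell cycle genes (63.1%), 34 of 55 Rab GTPases (61.8%), 46 of 76 chromatin regulators (60.5%) and 56 of 93 genes of ubiquitin conjugation and removal (60.2%). Examples are Brca1, whose region also lies within 1 kb of the start of Nbr1, at 99.7, and Rab1a, which acts in traffic from the endoplasmic reticulum, at 99.9. The nuclear pore and exosome (18 of 30, 60%), the proteasome (28 of 50, 56%) and the respiratory chain (47 of 85, 55.3%) lay lower. Histone genes had 42 of 80 (52.5%) and mitochondrial ribosomal proteins 39 of 78 (50%). All of these shares lay above that of all genes.

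Transcription factors spanned a wide range. Of 31 AP-1 and early response genes, 17 (54.8%) had a member, led by Btg2, Klf6 and Klf4 at 99.1, 98.5 and 98.4. The many zinc finger factors had one at 185 of 455 (40.7%), led by Zfp13 and Zbtb20. Of 39 genes in the Hox clusters, which pattern the body axis, 2 had a member (5.13%): Hoxb4 at its start and Hoxa9 at its far end.

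A list of 30 stem cell regulators and surface proteins, Cd34 and Flt3 included, had a member at 11 (36.7%), close to the share of all genes. Lyl1, a transcription factor of blood stem cells, had a mean percentile of 99.5 and lay between 98.9 and 99.8 in every list. The receptor gene Kit had percentiles of 95.1, 95.6 and 91.8 in aged 1, 2 and 3 and of 95.5, 31.2 and 94.5 in young 1, 2 and 3. Runx1 had 94.9, 95.6 and 97.4 in the aged lists and 99.1, 66.0 and 94.7 in the young lists. Mecom had 91.0, 93.0 and 93.5 in the aged lists and 96.1, 55.5 and 95.6 in the young lists. Young 2 was the lowest list for Kit, Runx1 and Mecom, and the other 5 lists lay above 90 for each. Hoxa9 had 5.9 in young 1 and between 55.5 and 97.7 in the other lists. With aged 3 and young 2 left out, 21 of the 30 genes (70%) had a region called in every list, against 51.6% of all genes.

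Several classes lay below the share of all genes. Solute carriers were close to it, with 100 of 362 (27.6%), and orphan G protein-coupled receptors had 12 of 66 (18.2%). Collagens had 4 of 42, ion channels 10 of 131 and cadherins with protocadherins 3 of 90. Markers of mature blood cells had 3 of 40 (7.5%): Tfrc (the transferrin receptor), Itga2b and Pf4. Itga2b, the integrin subunit of platelets, had percentiles of 99.3, 97.6 and 97.4 in aged 1, 2 and 3 and of 97.0, 66.0 and 94.5 in young 1, 2 and 3. Odorant receptors had 0 of 1104, with no peak in any list at 447, and defensins had 0 of 71.

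The few members in the receptor and keratin classes were mostly shared with a neighbouring gene. Among 407 vomeronasal and taste receptors there were 3 members. The one at Vmn1r4 also lay within 1 kb of the start of Nt5c3, and the one at Tas1r1 within 1 kb of that of Nol9. Among 112 genes with keratin symbols the 2 members were at Krt8 and at Krtcap2, which shares its region with Trim46 and is named for keratinocytes rather than keratins.

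**Figure D2:**
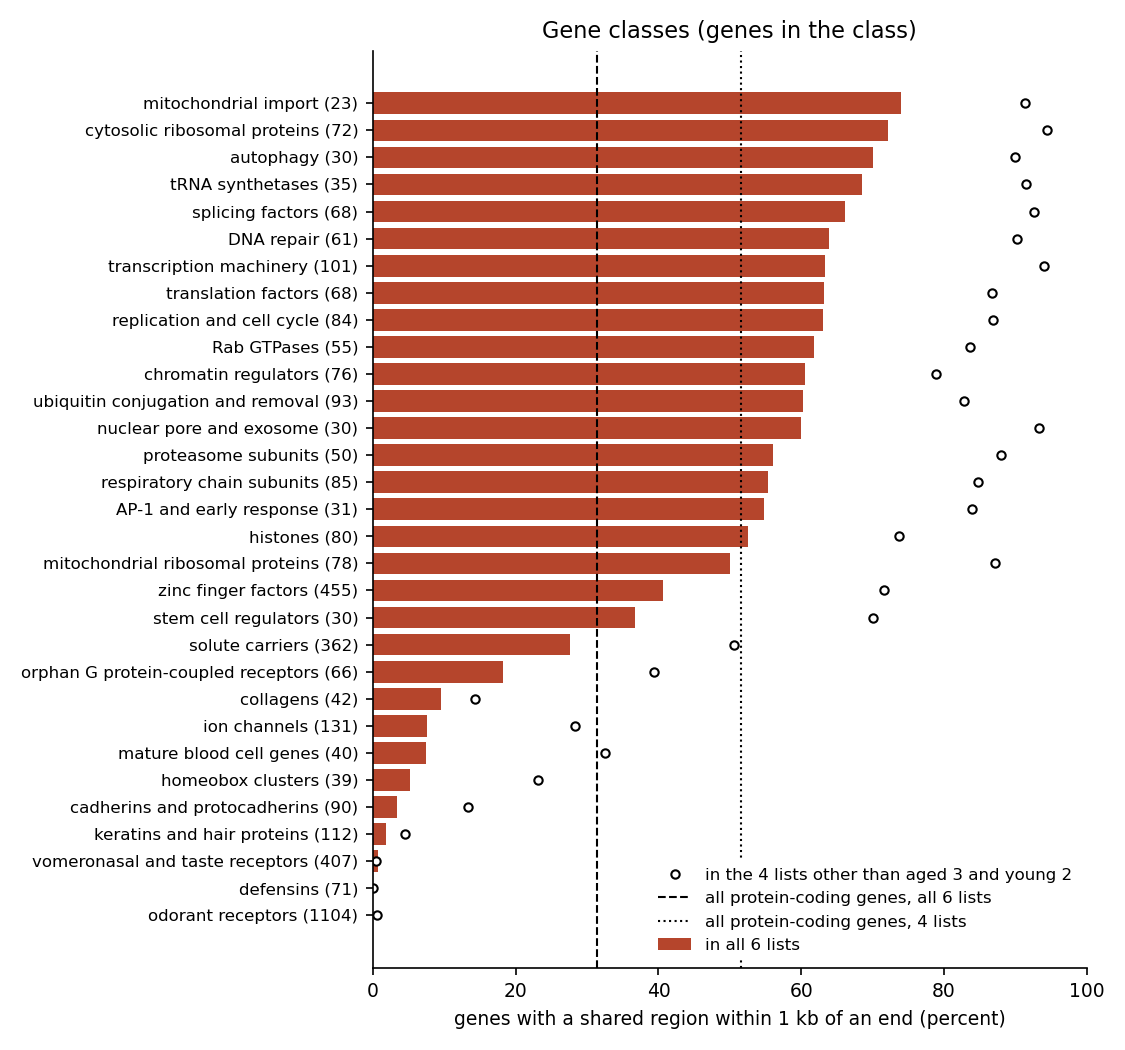
Percent of genes with a shared region within 1 kb of an end, by gene class, with the number of genes in brackets; red bars require a call in all 6 lists and open circles a call in the 4 lists other than aged 3 and young 2. The dashed and dotted lines give the same shares for all protein-coding genes, 31.4% and 51.6%; cytosolic ribosomal proteins stand at 72.2% and 94.4% and odorant receptors at 0% and 0.543%.

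Classes with high shares in all 6 lists also had high shares when aged 3 and young 2, which called the fewest gene ends, were left out. In the remaining 4 lists cytosolic ribosomal proteins reached 94.4%, the transcription machinery 94.1%, splicing factors 92.6% and DNA repair 90.2%. Mitochondrial ribosomal proteins, at 50% in all 6 lists, reached 87.2%. Ion channels reached 28.2%, Hox genes 23.1% and keratins 4.46%, all below the 51.6% of all genes. Classes overlap a little: Hoxa9 and Hoxb4 stand in both the Hox and the stem cell list.

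Most members lay at the ends of a single gene, and the rest were shared between genes: 4488 members (80.4%) lay near 1 gene and 1096 (19.6%) near at least 2. Among the single ones, 3566 lay at a start, 108 at a far end and 814 at an end whose strand the reference did not give. Among the paired ones, 627 lay within 1 kb of 2 starts on opposite strands and 186 of a start and a far end. Another 17 lay near starts on 1 strand, 6 near far ends alone, and 260 near at least 1 end of unknown strand. Of the paired regions, 1070 lay near 2 genes, 25 near 3 and 1 near 5.

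Paired members were slightly stronger and wider than single ones. The median percentile of paired members was 98.0, 97.5 and 97.0 in aged 1, 2 and 3 and 98.5, 88.8 and 96.7 in young 1, 2 and 3. That of single members was 97.7, 96.5 and 96.2 in the aged lists and 98.1, 81.05 and 96.0 in the young lists. The order was the same in every list, but the gap was 7.78 points in young 2 and at most 1.001 in the others. Young 2 values were heavily tied, with a lower quartile of 61.5 for both paired and single members. The 7.78 points there are a step between tied values. The mean gap was 1.84 ± 2.92 points (SD, n = 6 lists; higher in 6 of 6; exact sign-flip p = 0.03125). With members chosen again from the other lists, the gap averaged 0.914 points without young 2, 0.844 without aged 3 and 0.470 without aged 2. In the last case it was not higher in every list. Ranked among shared regions alone, it averaged 6.95 points. Peaks in paired members were wider by 35.8 ± 13.5 bp at the median (SD, n = 6 lists; exact sign-flip p = 0.03125).

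The clearest pairs were 2 starts on opposite strands. Their regions had a median merged width of 913 bp, against 856 bp for regions with 1 start. Their peaks had a median width of 567, 820 and 476 bp in aged 1, 2 and 3 and of 592, 337 and 742 bp in young 1, 2 and 3. Peaks at 1 start had 517, 749 and 423 bp in the aged lists and 538, 312 and 678 bp in the young lists. Peaks at opposite starts were wider in all 6 lists, by 52.8 ± 15.7 bp (SD, n = 6 lists; exact sign-flip p = 0.03125). The percentile was higher in 5 of 6 lists and tied in young 2, by 0.671 ± 0.452 points (SD, n = 6 lists; exact sign-flip p = 0.0625), which does not pass 0.05. With members chosen again from the other lists, this gap averaged 2.54 points without aged 3 and 1.11 without young 2 (exact sign-flip p = 0.0625 each). Ranked among shared regions alone, it averaged 7.72 points (exact sign-flip p = 0.0625).

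The strongest of these pairs joined genes of unlike function. Aamp, a WD-repeat protein, faced Pnkd at chr1:74284577-74285165. Erp44, which retains client proteins in the early secretory pathway, faced Invs, the gene of the ciliary protein inversin, at chr4:48279300-48280217. The others were BC005624 with the deubiquitinase gene Usp20, the receptor kinase gene Grk4 with the ribosome biogenesis gene Nop14, Ccdc151 (a ciliary protein) with Prkcsh (a glucosidase II subunit), and Azi2 with Zcwpw2. Their mean percentiles lay between 99.90 and 99.94. H2ac12 and H2bc12, a histone pair, shared a 780 bp region at 98.9, and Mrpl47 and Ndufb5, both of mitochondrial function, a 924 bp region at 99.7.

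Seen from the annotation, genes that start beside another start had a member more often. There were 878 pairs of starts of known strand on opposite strands within 1 kb of each other. In 599 of them (68.2%) 1 member lay within 1 kb of both starts. A member lay near at least 1 of the starts in 69.0%. Whether the region itself spanned both starts was not counted. The starts of 31.3% of the 16456 genes with known strand had a member within 1 kb. The share was 68.6% of the 1746 genes in such pairs and 26.9% of the 14710 others, or 29.8% of the others with odorant, vomeronasal and taste receptors, keratins and defensins left out. Pairs with 1 member near both starts had a median distance of 135 bp between their starts, and in 192 of them the genes overlapped. By distance, 1 member lay near both starts of 61.7% of 311 overlapping pairs and 72.0% of 439 pairs under 250 bp apart. The share was 80.2% of 86 pairs from 250 to 500 bp apart and 52.4% of 42 pairs farther apart. A region at either start of a pair also lies near the other, so part of the contrast with lone genes is built into the counting.

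Far ends rarely had a member. Far ends called in fewer than 6 lists are not counted here. Of the 16456 genes with known strand, 440 (2.67%) had a member within 1 kb of the far end, and many of those regions also lay at the start of another gene. Members at far ends alone numbered 114. Their median percentile was 95.7, 91.8 and 90.8 in aged 1, 2 and 3 and 96.0, 73.1 and 90.7 in young 1, 2 and 3. Members with a start had 97.8, 96.8 and 96.4 in the aged lists and 98.3, 88.8 and 96.3 in the young lists. They were higher than far ends in each list, by 6.06 ± 4.97 points (SD, n = 6 lists; exact sign-flip p = 0.03125), and their peaks were wider by 133.7 ± 66.4 bp (exact sign-flip p = 0.03125). Ranked among shared regions alone, the percentile gap was 28.6 points. In 103 of the 114, no other listed start and no end of a long non-coding gene lay within 1 kb. After Lars2, the strongest were P2ry14 (a receptor for UDP-glucose, 99.3), Ctdsp1 (a phosphatase of small C-terminal domain type, 99.0), Fam120a (98.8) and Dnajb12 (a chaperone of the endoplasmic reticulum, 98.3).

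Long non-coding genes lay near single starts more often than near opposite starts. The share over all gene starts was not computed. An end of such a gene lay within 1 kb of 577 of the 3566 members with 1 start (16.2%), against 14 of the 627 with opposite starts (2.23%). Over all members the share was 13.6%, against 11.5% of other shared regions. Some single protein-coding starts therefore also have a second, non-coding gene nearby. The RefSeq table gives no strand for the non-coding genes, so their orientation is not known here.

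Summits placed the open stretch just upstream of the start. At members with 1 start, the median distance of the summit from the nearest listed start was −56, −55 and −55.5 bp in aged 1, 2 and 3 and −57, −55 and −53 bp in young 1, 2 and 3, where negative means upstream. At opposite starts it was −27, −30 and −26 bp in the aged lists and −23, −6 and −29 bp in the young lists. Between 62.0% (young 2) and 79.1% (young 3) of summits at opposite starts lay within 100 bp of a start, against 42.8% (young 2) to 60.4% (young 3) at 1 start. With 2 starts to choose from, the nearest is closer by construction. The young 2 summits were the most scattered in both sets.

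**Figure D3:**
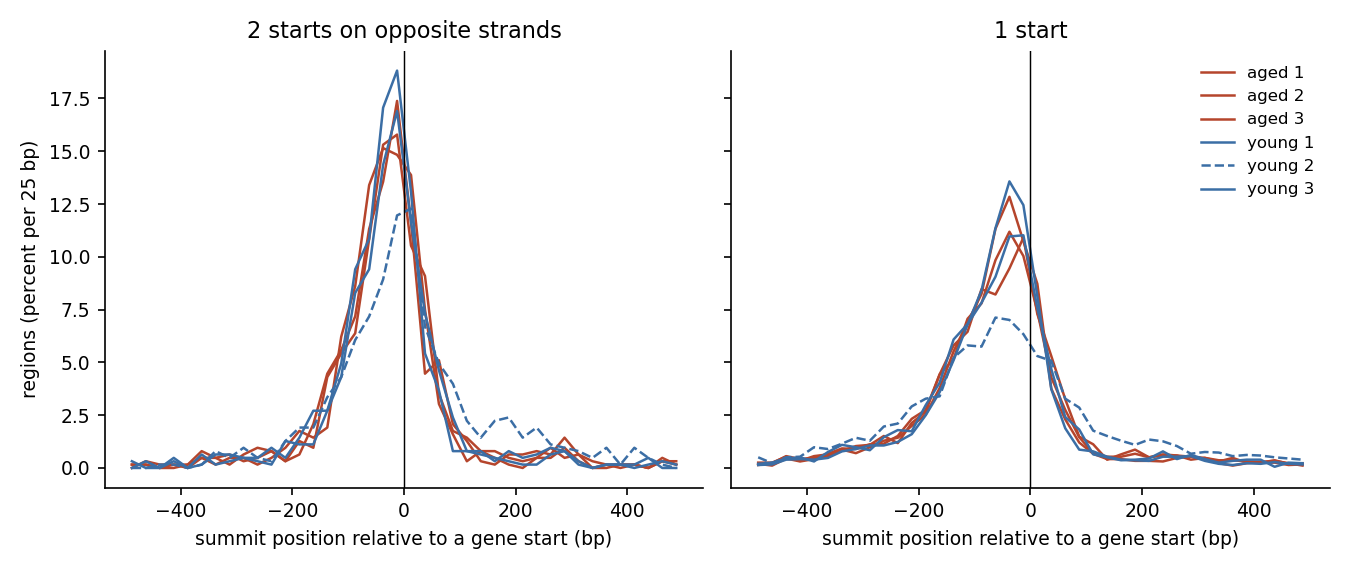
Position of the peak summit relative to the nearest listed gene start, in bp, for members with 2 starts on opposite strands (left, n = 627) and with 1 start (right, n = 3566), as percent of regions per 25 bp; each line is 1 list, red for aged and blue for young, with young 2 dashed. The lines of 5 lists lie close together with their peak just upstream of 0, and young 2 is flatter, with 62.0% and 42.8% of summits within 100 bp.

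Promoter sequence was read in windows of 300 bases, 250 before to 50 after a start, for the 16456 genes that the promoter table covers. Members overlapped 4802 of them, which is 29.2%. The ratio of observed to expected CpG, which is near 1 where CpG has not been lost, had a median of 0.831 in windows with a member and 0.377 in windows without. The median GC content was 63% in windows with a member and 53.3% in windows without. Of 8189 CpG-rich windows (ratio above 0.6), 51.0% lay in a member, and of 5102 CpG-poor windows (ratio below 0.3), 1.82% did. In no list did 481 of the CpG-rich windows (5.87%) have a peak.

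CpG content was graded with the number of lists that called the promoter, counted for the overlapping region with the most lists. Its median ratio was 0.191 for windows called in no list, 0.267 in 1, 0.479 in 2, 0.618 in 3, 0.701 in 4, 0.771 in 5 and 0.830 in all 6. Within the members, by contrast, it barely differed with strength: with the promoters split into 4 equal groups by mean percentile, it was 0.812 in the lowest group and 0.833 in the highest. The ratio was 0.868 at opposite starts and 0.820 at 1 start.

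The 7 motifs that contain a CpG were more frequent in members than in all promoters. The GC box GGGCGG was found in 74.6% of promoters in members, against 47.3% of all promoters. The ETS motif CCGGAAG was found in 21.9%, against 12.3% of all, and the NRF1 motif GCGCNTGCG in 17.9%, against 9.25% of all. The YY1 motif AAGATGGCG was found in 3.87%, against 1.92% of all, and the palindrome CTCGCGAG in 2.39%, against 1.29% of all. The E-box CACGTG (11.04%, against 7.97% of all) and the CRE TGACGTCA (3.79%, against 2.40% of all) were also more frequent. Other motifs were rarer in members: TATAAA was found in 5.25%, against 13.5% of all, the GATA motif AGATAA in 4.44%, against 9.85% of all, and the RUNX motif TGTGGT in 10.6%, against 14.8% of all. The AP-1 motif TGANTCA was found in 3.67%, against 7.12% of all. The 7 motifs named here as more frequent in members all contain a CpG, and the 4 that were rarer contain none. Shares at matched CpG content were not computed.

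**Figure D4:**
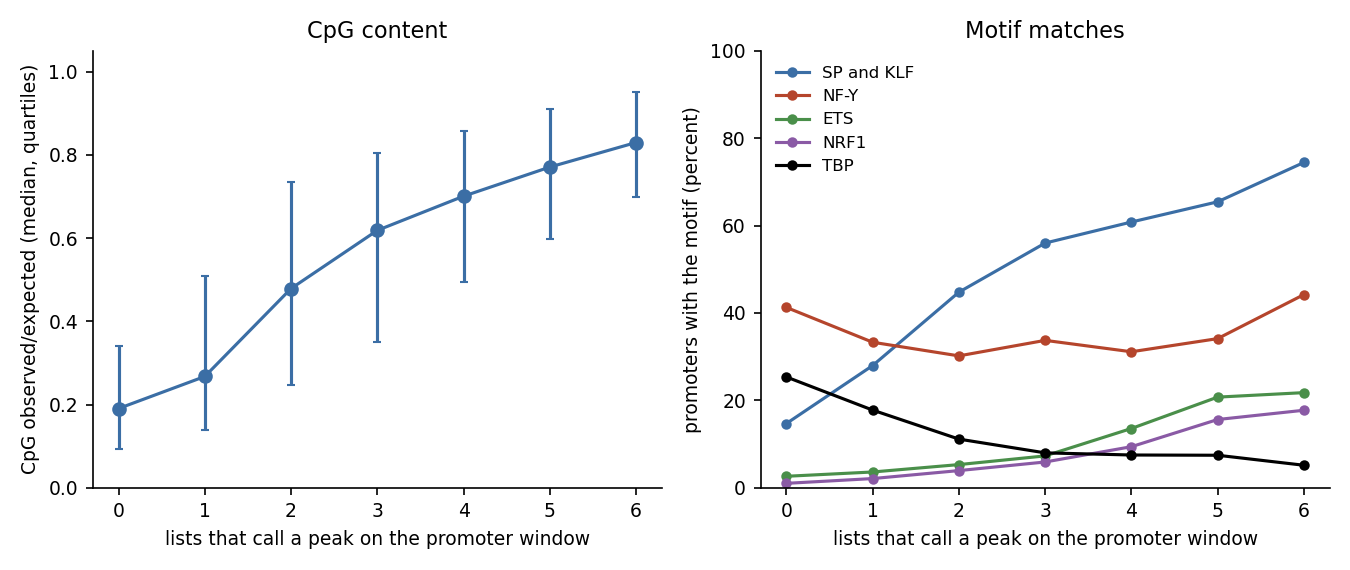
Promoter windows of 300 bases grouped by the number of peak lists, from 0 to 6, that call the overlapping region with the most lists (5260 windows in no list, 5110 in all 6). Left, median and quartiles of the observed to expected CpG ratio, from 0.191 in no list to 0.830 in all 6; right, the percent of windows with a match for the motif of each factor family, among which the NF-Y line dips, from 41.3% in no list to 30.2% in 2 lists, and stands at 44.2% in all 6.

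CCAAT, which contains no CpG, was more frequent in the stronger members. It was found in 44.5% of promoters in members, against 39.1% of all promoters. By the number of lists, from 0 to 6, its share was 41.3, 33.3, 30.2, 33.7, 31.1, 34.1 and 44.2%. In the same 4 groups, from the lowest mean percentile to the highest, its share was 30.5, 42.0, 48.8 and 56.8%. The GC box had 72.2, 70.5, 75.4 and 80.3% in these groups, and the ETS motif 21.6, 22.6, 23 and 20.6%.

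The difference was seen list by list. Members whose promoter held CCAAT or ATTGG (1945 regions) had a median percentile of 98.6, 97.7 and 97.3 in aged 1, 2 and 3 and of 98.8, 96.9 and 97.1 in young 1, 2 and 3. Members without it (2328 regions) had 97.2, 96.1 and 95.7 in the aged lists and 97.9, 73.1 and 95.7 in the young lists. Members with the motif were higher in all 6 lists, by the most in young 2, where many peaks were tied and medians move in steps. No test is given, because the motif was singled out among 12 after the values were seen. In members the matches had a median position 83 bp before the start, and 43.0% lay from 40 to 120 bp before it, a stretch that makes up 27% of the window; outside members these values were 91 bp and 38.3%.

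Classes also differed among promoters with a CpG ratio above 0.6. Above this limit the ratio was not matched between classes, and some classes held few such promoters. Among CpG-rich promoters alone, those in members made up 78.6% for mitochondrial import (11 of 14), 70.9% for splicing factors (39 of 55) and 64.4% for cytosolic ribosomal proteins (29 of 45), against 51.0% of all CpG-rich promoters. The share was 47.6% for zinc finger factors (100 of 210), 42% for histones (21 of 50) and 30.8% for stem cell regulators (4 of 13). It was 2.94% for ion channels (1 of 34), 10% for cadherins and protocadherins (1 of 10) and 0 of 10 for Hox genes. Of Hox promoters 45.5% were CpG-rich and of solute carrier promoters 48.9%, but 0% of Hox promoters and 23.05% of solute carrier promoters lay in a member. Histone promoters stood out by other letters, since 81.1% held CCAAT and 50% TATAAA, against 39.1% and 13.5% of all promoters.

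**Figure D5:**
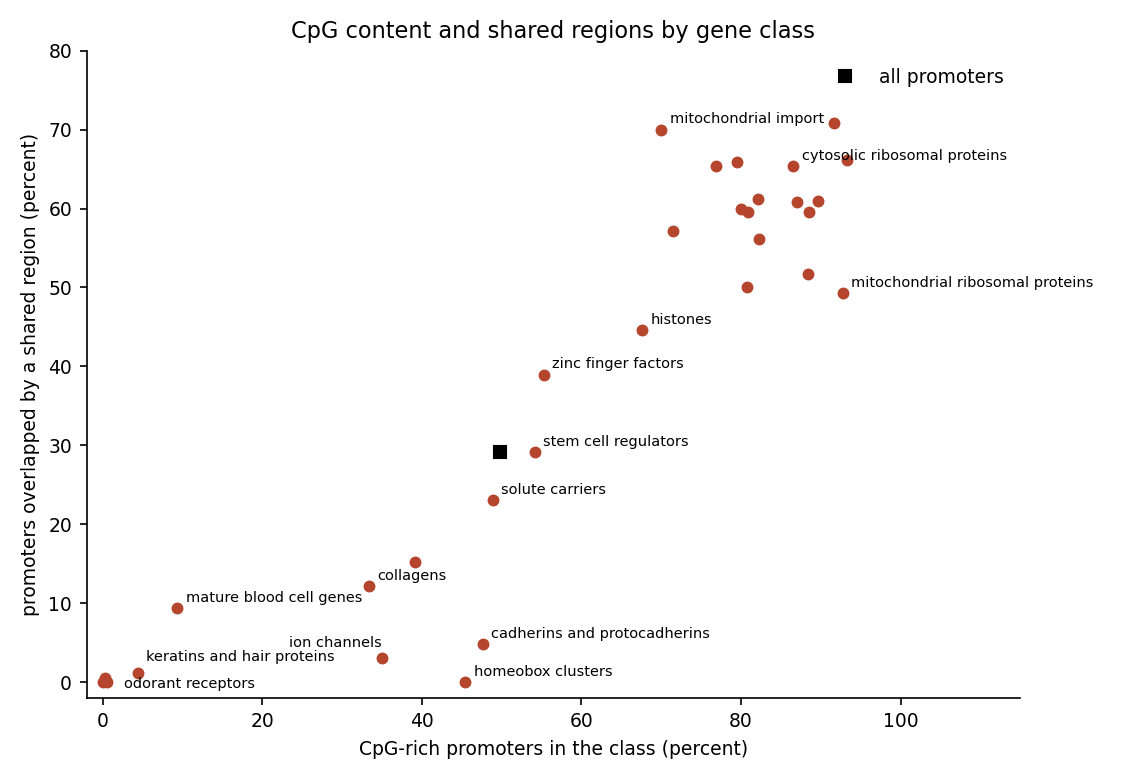
Each point is a gene class with at least 20 promoters in the reference: across, the percent of its promoters that are CpG-rich (ratio above 0.6); up, the percent overlapped by a shared region at a gene end. The black square marks all promoters (49.8% and 29.2%). Hox clusters (45.5% and 0%), ion channels (35.1% and 3.09%) and cadherins lie low for their share of CpG-rich promoters.

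A few CpG-poor promoters were members all the same. There were 93 of them, with a median mean percentile of 88.7. The strongest, named here after their values were seen, were Lyl1 (ratio 0.261, mean percentile 99.5), Gmfg (0.223, 99.0), Ctla2b (0.160, 99.0) and Ctla2a (0.223, 98.9). F2rl3, the gene of the thrombin receptor PAR4, had no CpG in its window and a mean percentile of 98.1.

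Aged and young lists were compared by gaps within a list, by a fixed number of strongest peaks and by ranks among the shared regions. The gap between members and other shared regions was 1.40, 3.26 and 4.62 points in aged 1, 2 and 3 and 1.71, 15.7 and 4.32 points in young 1, 2 and 3. The aged and young values overlapped, with young 2 alone far above the rest. The aged lists had a mean gap of 3.09 ± 1.62 points, against 7.24 ± 7.43 points for the young lists (SD, n = 3 per age; exact 2-sided permutation p = 0.5, where 3 against 3 cannot go below 0.1). Without young 2, with members chosen again from the other lists, the sign turned, to an aged minus young difference of 0.506. The percentile gap depends on list length, and ranked among shared regions alone the difference was −0.231 points (exact permutation p = 1). Members held 59.1 ± 4.91% of the 5000 strongest peaks of the aged lists, against 52.9 ± 16.0% for the young lists (SD, n = 3 per age; exact permutation p = 0.8). Here too the sign turned without young 2 and with members chosen again, to −3.44 percentage points.

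No single member passed the test for age. The −log10 p of the 9376 shared regions was ranked within each list and turned into normal scores, so that list length and depth do not set the scale. With limma and Benjamini-Hochberg adjustment over all 9376 regions, 0 regions (0%) passed an adjusted p of 0.05. At an unadjusted p under 0.05 there were 363 regions (3.87%), 177 of them members (87 higher and 90 lower in aged). Plain ranks and scores of the fold enrichment also gave 0 calls. On simulated scores of the same 9376 regions, with 200 changed, the fit recovered 0 at a difference of 1 unit of score, 67 at 2 and 189 at 4, so small differences were not detectable with 3 lists a group.

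The scores of aged and young lists did not overlap for 544 of 5584 members (9.74%), with aged higher in 285 and lower in 259, against 906 of all 9376 shared regions (9.66%). The members' share was thus close to that of all shared regions.

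The members with the smallest unadjusted p are given as values. Arid4a, a chromatin protein that binds the retinoblastoma protein, had scores of 2.22, 1.26 and 2.26 in aged 1, 2 and 3 and of 0.68, −0.53 and 0.60 in young 1, 2 and 3, a difference of 1.66 ± 0.48 (SE; limma adjusted p = 0.947). S100a4, a calcium-binding protein, had −1.59, −0.90 and −1.56 in the aged lists and 0.44, 0.89 and −0.67 in the young lists, a difference of −1.57 ± 0.48 (SE; limma adjusted p = 0.947). For both genes the groups did not overlap, and neither passed the adjusted threshold. The others named by the same rule were Hs1bp3 and Pdp2, with higher scores in aged lists, and Vrk2 and Cstf2t, with lower ones, at the same limma adjusted p of 0.947.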

How the data were processed

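ATAC-seq peak lists of 3 aged and 3 young samples were used, grouped by sample title. Per the submitters' processing notes, mm10 is the named build and MACS2, Picard, SAMtools and Bowtie2 are the named tools; versions and settings are not given in the sources used here. Each deposited list holds a score (the −log10 p multiplied by 10, without decimals and at most 1000, apart from a few rows), a fold enrichment over the sample's own background (a ratio), and −log10 p and −log10 q values. These are the authors' values and depend on depth, which is unknown; the scores and q-values served only for checks and alternatives. Peaks were called per sample. Rows that repeat an interval were reduced to 1 peak with its highest summit, and peaks of all lists were merged. A percentile is a peak's rank by −log10 p among all autosomal peaks of its list, where tied peaks share their mean rank.

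Genes and promoters came from RefSeq tables on GRCm38.p6, the assembly of mm10; 16456 of 20661 genes had a strand, and none of 510 on chromosome 18. Members, gene classes (by symbol), motifs and named genes were chosen with earlier results of these data known. Named genes are the 10 highest, 5 widest and 5 lowest members, the 6 highest with 2 starts, up to 3 per class, those nearest the 1 kb limit and 3 per direction by age. Lists were compared by exact sign-flip tests over 6 lists (at 5 lists p cannot go below 0.0625) and exact permutation tests of 3 against 3. Regions were compared by limma 3.58.1 in R 4.3.3; other steps used Python 3.11.15, pandas 2.3.3 and scipy 1.17.1. The limma fit was tested on simulated data. Alternatives were the window (500 bp, 2 kb), a −log10 q of at least 1.3, a base common to all lists, fold enrichment in place of −log10 p, ranks among the shared regions alone, the number of strongest peaks (2000, 10000), and leaving out lists. Some genes that meet the naming rule are counted in their class but not named.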

Additional observations from a re-analysis of the deposited data

How the results depend on the processing

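Of 108 alternatives over 10 results, 75 were counted as the same. For the member count (10), the limma calls (9) and the share of genes (4), this means a value near the main one. For the age differences in percentile gap (12) and in share of strongest peaks (9), p could not go below 0.1. Their side of the 0.05 threshold was thus fixed in advance, and only their direction could change. Sign-flip tests with 1 list left out could not pass it either. The percentile gap of paired to single gene ends was 0.590 with a 500 bp window and 0.472 with a base common to all lists (exact sign-flip p = 0.0625 each). The gap of opposite starts to single starts passed with the fold enrichment (1.91, exact sign-flip p = 0.03125). Ranks among the shared regions alone enlarged the gaps to 22.8 (other shared regions), 28.6 (starts to far ends), 6.95 (paired) and 7.72 (opposite starts) and shrank the aged minus young gap to −0.231, without changing a call. Leaving out 1 list gave 4.42 to 6.09 for the percentile gap to other shared regions, 111.2 to 155 bp for the width gap, 0.470 to 2.22 for paired ends, 0.568 to 2.54 for opposite starts and 4.96 to 6.98 for starts against far ends; with 5 lists the smallest exact p is 0.0625. It gave −6.79 to 0.506 for the aged minus young percentile gap and −3.44 to 11.997 for the aged minus young share of strongest peaks, both reversed without young 2. Members were chosen again from the remaining lists each time, and 5533 to 7793 were found, at 31.1 to 42.4% of genes. Without aged 3 and young 2, an alternative chosen after seeing the data, there were 9938 members at 51.6% of genes. Same-numbered aged and young samples also share a number after "exp" in their titles, and what it marks is not stated. They did not deviate together (r = 0.040, −0.161 and −0.065), so the numbers were not taken to pair them. The largest correlation was 0.216, between aged 2 and young 3. With the replicate number as a block the gap was −4.15 (exact p = 0.5), the share 6.20 (exact p = 1) and the limma calls 0. Unknown depth limits all values, and young 2 resolves ranks most coarsely.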

Other observations

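The X chromosome was outside the rule and gives a comparison. It held 206 regions called in all 6 lists, of which 129 (62.6%) lay within 1 kb of a protein-coding gene end, against 59.6% on the autosomes. Of its 966 protein-coding genes, 145 (15.0%) had such a region, a lower share than on any autosome, where it ran from 24.9% (chromosome 14) to 36.9% (chromosome 8). The sex of the mice is not in the labels, and neither it nor the share of receptor families on the X was taken into account.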
